A study of Mus musculus with 7 samples.

Results

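The 40 genes described here encode the proteins that license DNA replication origins, open the helicase and copy DNA at the fork. They were chosen by name, from the origin recognition complex to the flap nuclease and ligase, and all 40 were found by symbol among the 23038 genes of the deposited table. Haematopoietic stem cells (HSCs) had been sorted from the bone marrow of C57BL/6 mice, and their RNA was sequenced by Smart-seq2, which amplifies full-length cDNA from few cells. Sorted cells were negative for lineage markers and CD48 and positive for Sca1, cKit and CD150, with 150 cells per library. The 3 control libraries came from Cre-negative littermates and the 4 mutant libraries from Mx1-cre; Mettl3 fl/fl mice, labelled as separate biological replicates. Animals were adult, with no exact age given. All mice of both groups had received 5 doses of 10 µg of the interferon inducer pIpC, a synthetic double-stranded RNA, and were killed 10 days after the last dose. The Mx1 promoter that drives Cre responds to interferon and is active in many cell types of the marrow and other organs, so deletion need not be limited to HSCs. Mettl3 encodes the catalytic subunit of the enzyme that places N6-methyladenosine (m6A) on mRNA.

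Replication is prepared in G1, when the origin recognition complex, Cdc6 and Cdt1 load the MCM helicase on DNA as inactive double hexamers. Geminin, the product of Gmnn, then blocks Cdt1 so that no origin is loaded again in the same cycle. In S phase, kinases recruit Cdc45 and the GINS complex to MCM, and the active helicase is followed by primase, polymerases, the sliding clamp PCNA and its loader RFC. Most HSCs are quiescent, and many licensing genes are targets of E2F transcription factors, whose output is low in quiescent cells.

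The values are the authors' means in RPKM (reads scaled to gene length and library size), 1 per gene and group. The values of individual libraries are not analysed here, so no difference below has a replicate check, an error or a p-value, and whether the groups overlap cannot be told. Differences are given as log2((mutant + 1) / (control + 1)), called the log2 difference, and folds of single genes as ratios of the deposited means. Counts of genes at least 1.5-fold or 2-fold apart are taken on the log2 scale with its pseudocount, which passes fewer low genes than the ratios do. Mettl3 itself was at 49.8 RPKM in control and 9.60 RPKM in mutant HSCs. Every value in the table lies above 0 because of an offset of 0.0414 (controls) or 0.0349 RPKM (mutants) at a length of 1 kb. If the offset stands for 1 read in each library, the harmonic mean depth was 24.1 M reads (M, megareads) per control library and 28.7 M per mutant library. On that reading, and with the longest GENCODE transcript as the length, Orc1 had about 192 reads per control library, the fewest of the replication genes, and 782 per mutant library, where Mcm10 had the fewest with 714. Of 10 genes that mark or gate HSCs, 3 were higher in the mutant mean and 7 lower, with Ly6a (Sca1) at 152 and 167 RPKM, Slamf1 (CD150) at 25.9 and 27.1 RPKM and Kit at 67.4 and 39.9 RPKM in controls and mutants. Summed levels of other markers were 406 and 515 RPKM for 8 genes of progenitors, of which Prtn3 held 276 and 368 RPKM and Cd34 113 and 136 RPKM while Cd48 was at 5.33 and 4.04 RPKM, 1592 and 1067 RPKM for 8 erythroid genes, of which Car2 held 1560 and 1021 RPKM, and 441 and 405 RPKM for 9 genes of mature lineages. Of the last, Cd3e and Ms4a1 were at the offset in both groups, Lyz2 was at 406 and 289 RPKM and Cd68 at 26.4 and 108 RPKM. Of all genes with at least 1 RPKM in a group, 51.7% were higher in the mutant mean. Of the markers at that level, 3 of 6 progenitor, 3 of 5 erythroid and 3 of 6 mature lineage genes were higher. Their part in the values below was not tested.

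Sequences before annotated transcript starts were searched for the letters bound by E2F factors. RefSeq promoter windows (GRCm38.p6, the 250 bases before a transcript start) matched 32 of the 40 genes, and the other 8 were Gins1, Gins2, Gins4, Gmnn, Mcm4, Pole, Prim2 and Rfc2. The search took TTTCCCGC, TTTGGCGC, TTTCGCGC and TTTGCCGC on both strands, where a match on one strand can overlap a match on the other. Such letters stood in 9 of 32 genes (28.1%), against 4.56% of 5334 genes with at least 10 RPKM in a group and 1.86% of all 32851 windows. The 9 sites are shown because they include the gene farthest apart between the groups, Orc1, and genes that were lower in mutants. Each is printed 5′ to 3′ on the strand of its gene, with the first match in capitals and up to 11 bases on each side.
Orc1, chr4:108579416-108579445, plus strand: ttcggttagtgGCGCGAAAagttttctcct
Cdc6, chr11:98908002-98908031, plus strand: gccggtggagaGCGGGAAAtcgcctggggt
Mcm5, chr8:75109345-75109374, plus strand: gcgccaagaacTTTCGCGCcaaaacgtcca
Mcm6, chr1:128359797-128359826, minus strand: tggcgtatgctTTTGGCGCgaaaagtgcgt
Orc3, chr4:34614965-34614994, minus strand: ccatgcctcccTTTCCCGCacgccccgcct
Pola1, chrX:93632275-93632304, minus strand: gtcatcacaggGCGCCAAAtgcactcccgc
Mcm7, chr5:138172030-138172059, minus strand: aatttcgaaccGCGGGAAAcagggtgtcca
Gins3, chr8:95633507-95633536, plus strand: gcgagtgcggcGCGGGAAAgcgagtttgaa
Rfc3, chr5:151651209-151651229, minus strand: acgtcgcacgcTTTCGCGCtc
The Orc1, Cdc6, Mcm7, Pola1 and Orc3 sites come from stretches that lie inside the RefSeq span of the gene or reach into it. With 60 bases on each side of the match, as far as the start, the stretches of Mcm7 (128 bases) and Gins3 (101 bases) lay wholly in GENCODE exons of the same gene, and those of Orc1, Rfc3 and Cdc6 shared 31, 34 and 29 bases with them. The Orc1 match begins 27 bases before its start, the Rfc3 match 10 bases and the Cdc6 match 138 bases. Mcm6 was the gene with the most matches, 3, spread over the stretch printed next, which touches no annotated exon; the first 2 matches overlap and appear as 1 run of capitals.
Mcm6, chr1:128359706-128359875, minus strand: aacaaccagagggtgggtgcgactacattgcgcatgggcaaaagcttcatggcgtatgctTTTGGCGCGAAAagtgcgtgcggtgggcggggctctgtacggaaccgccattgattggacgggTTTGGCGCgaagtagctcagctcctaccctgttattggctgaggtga
The 9 genes with these letters had a median log2 difference of -0.10 (4 higher and 5 lower in the mutant mean), and the 23 genes without them -0.02 (10 higher and 13 lower). The letters were therefore found at genes on both sides. The CCAAT box was in the windows of 21 of the 32 genes (65.6%), against 41.2% of genes with at least 10 RPKM. The cell cycle homology letters TTTGAA or TTCGAA were in 7 (21.9%), against 15.2%. A match describes the letters only and does not show that a factor binds there.

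The replication genes were well expressed in both groups and lay near the controls as a group. Levels ran from 2.64 RPKM for Orc1 to 555 RPKM for Rfc2 in controls, with a median of 67.0 RPKM, and from 5.11 RPKM for Mcm10 to 485 RPKM for Rfc2 in mutants, with a median of 57.3 RPKM. In either group 38 of the 40 genes were at 10 RPKM or more, and their summed level was 3491 RPKM in control and 3517 RPKM in mutant HSCs. In the mutant mean 17 were higher (42.5%) and 23 lower, where 51.7% of the 11605 genes with at least 1 RPKM in a group were higher. The direction of Mcm3 flipped when mutant values were divided by the median ratio of all genes, and that of Cdt1 when both columns were brought to equal sums. In RNA from sorted pools, fewer cells of a type and less RNA per cell cannot be told apart. The median log2 difference was -0.04, beside 0.02 for all genes with at least 1 RPKM and 0.03 for the 6607 genes with at least 10 RPKM.

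**Figure D1:**
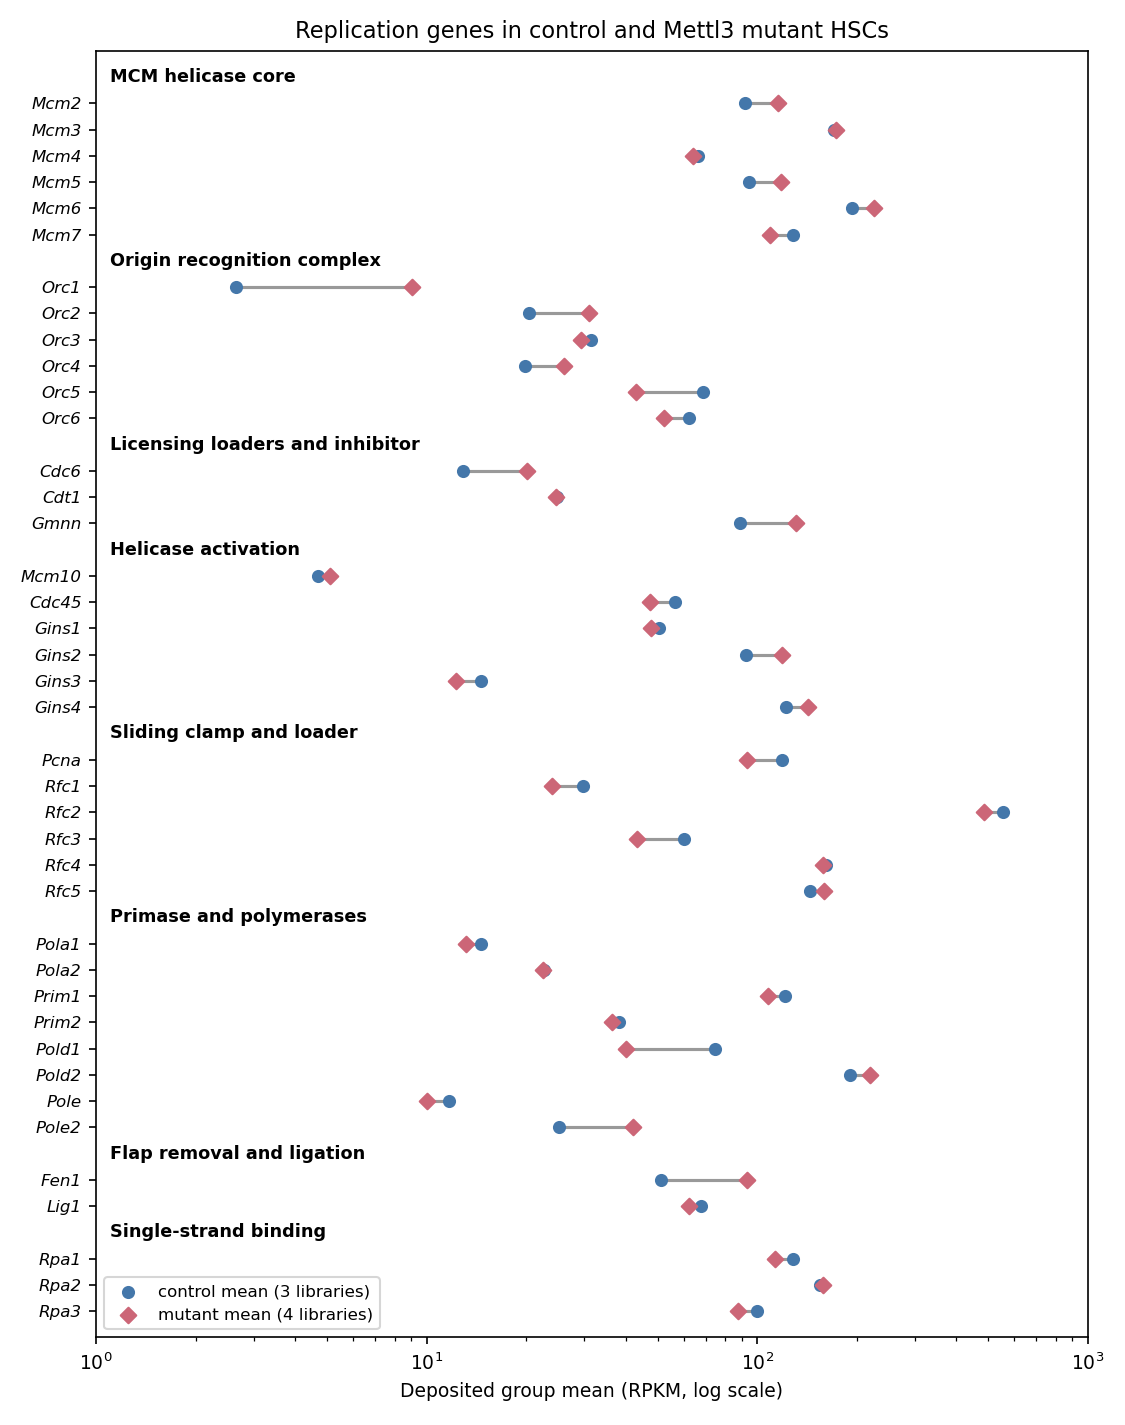
Deposited group means of the 40 replication genes in RPKM on a log axis, by role, with controls as circles and mutants as diamonds joined by a line for each gene. Most pairs lie close together, whereas Orc1 is at 2.64 and 9.04 RPKM and Pold1 at 74.7 and 40.03 RPKM in controls and mutants.

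By size, 4 genes were at least 1.5-fold higher in the mutant mean on the log2 scale, namely Orc1, Fen1, Pole2 and Cdc6, and 2 were at least 1.5-fold lower, Pold1 and Orc5. The same sizes were passed by 14.8% of all genes with at least 1 RPKM in the higher direction and by 12% in the lower, so counts of 4 and 2 among 40 are near the background and are no result about these genes. Orc2 lay just under the 1.5-fold mark at a log2 difference of 0.58, beside Cdc6 just above it at 0.61. At 2-fold, 1 of the 40 genes was higher, Orc1, and 0 were lower, where 4.6% and 4.34% of all genes were. Among the genes with at least 10 RPKM, 13.3% passed 1.5-fold in the higher direction and 8.58% in the lower. The middle 50% of those genes lay between -0.24 and 0.33, and 25 of the 40 replication genes lay in that interval.

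**Figure D2:**
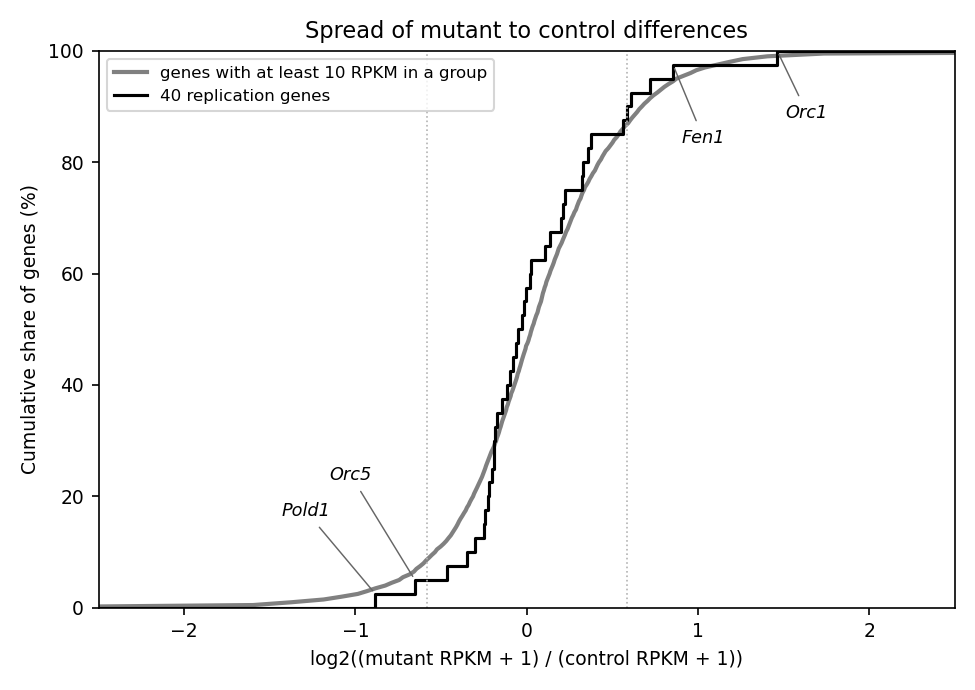
Cumulative share of genes in percent against the log2 difference, for the 40 replication genes (black steps) and for 6607 genes with at least 10 RPKM in a group (grey). Dotted lines mark 1.5-fold in each direction, with Orc1 and Fen1 beyond the right line and Pold1 and Orc5 beyond the left one, and the black steps run close to the grey line.

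The origin recognition complex, which marks origins and recruits the helicase, held both ends of the licensing genes. Orc1, the subunit whose level is regulated through the cell cycle (NCBI Gene 18392, chr4:108575705-108616030, GRCm38.p6), was at 2.64 RPKM in control and 9.04 RPKM in mutant HSCs. It was 3.42-fold higher, with a log2 difference of 1.46, and 0.878% of genes with at least 10 RPKM had a higher one. Orc1 was below 10 RPKM in both groups and so lies outside that set. Differences of at least 2-fold in the higher direction were more common among genes with at least 1 RPKM, at 4.6% against 3.36%. Orc1 was the lowest of the 40 genes in controls and the second lowest, above Mcm10, in mutants. An annotated antisense transcript, Gm12743, shares 10.8% of the exonic bases of Orc1. Orc2, a core subunit, was at 20.4 and 31.0 RPKM in controls and mutants, 1.52-fold higher. The exons of Nif3l1 on the opposite strand cover 29.8% of those of Orc2, and Nif3l1 was at 51.0 and 66.0 RPKM. Smart-seq2 does not mark strand, so reads from such partners cannot be told apart. Orc4, an ATP-binding subunit, was at 19.9 and 26.1 RPKM.

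The remaining subunits were lower in the mutant mean. Orc5 (chr5:22486480-22550338), another ATP-binding subunit, was at 68.4 RPKM in control and 43.1 RPKM in mutant HSCs, 1.59-fold lower, with a log2 difference of -0.65. Orc6, the smallest subunit, was at 62.4 and 52.4 RPKM, and Orc3 at 31.5 and 29.3 RPKM. Opposite-strand exons of Vps35 cover 6.93% of the exonic bases of Orc6, and Vps35 was at 42.1 RPKM in control and 89.7 RPKM in mutant HSCs. The complex was thus more even in mutants. The highest subunit exceeded the lowest 25.9-fold in controls and 5.80-fold in mutants, and without Orc1 3.44-fold and 2.01-fold. The summed level of the 6 genes was 205 RPKM in control and 191 RPKM in mutant HSCs.

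Of the genes that load the helicase, Cdc6 and the inhibitor gene Gmnn were higher in the mutant mean while Cdt1 was at nearly the same level in both. Cdc6, the ATPase that joins the origin complex and brings MCM to it (chr11:98907709-98923942), was at 12.9 RPKM in control and 20.2 RPKM in mutant HSCs, 1.57-fold higher. Cdt1, its partner that carries MCM (chr8:122568015-122573130), was at 24.8 RPKM in control and 24.7 RPKM in mutant HSCs. Gmnn (chr13:24751845-24761937) was at 88.7 and 131 RPKM, 1.48-fold higher and short of 1.5-fold on the log2 scale, at 0.56. RPKM is scaled to gene length, and ratios between genes are given here as descriptions only. The lengths used by the authors and the reads of overlapping genes were not checked. The Gmnn level exceeded that of Cdt1 3.58-fold in controls and 5.32-fold in mutants, and the Cdc6 level was 0.520 of that of Cdt1 in controls and 0.817 in mutants.

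The genes of the MCM helicase, a ring of 6 different ATPases that unwinds DNA, differed little between the groups. Mcm2 was at 92.1 RPKM in control and 116 RPKM in mutant HSCs, and Mcm5 at 94.2 and 118 RPKM. These subunits form the gate through which the ring is loaded on DNA, and their log2 differences were both 0.33. Mcm6 was at 194 and 226 RPKM, and Mcm3 at 171 and 173 RPKM. Mcm4 was at 66.5 and 64.0 RPKM. Mcm7, whose introns hold a microRNA cluster and which shares 7.25% of its exonic bases with Ap4m1, was at 128 and 110 RPKM. Ap4m1, on the opposite strand, was at 19.4 RPKM in control and 3.90 RPKM in mutant HSCs. None of the 6 was 1.5-fold apart, the sum of their levels was 746 RPKM in control and 807 RPKM in mutant HSCs, and the highest exceeded the lowest 2.92-fold and 3.52-fold.

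The genes that turn the loaded ring into an active helicase went to either side. Cdc45, the subunit that joins at firing, was at 56.5 RPKM in control and 47.3 RPKM in mutant HSCs. Of the 4 GINS subunits, which bind between Cdc45 and MCM, Gins2 was at 92.6 and 119 RPKM and Gins4 at 122 and 143 RPKM. Gins1 was at 50.5 and 47.7 RPKM and Gins3 at 14.6 and 12.3 RPKM. The pair that was higher in the mutant mean was also the pair with the higher levels in both groups. Opposite-strand exons of Gse1 cover 67.3% of the exonic bases of Gins2, and Gse1 was at 10.4 and 7.81 RPKM. Mcm10, which helps the helicases part and start, was the second lowest of the 40 genes in controls at 4.69 RPKM and the lowest in mutants at 5.11 RPKM.

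Genes of the sliding clamp and its loader were lower in 5 of 6, with a median log2 difference of -0.25. Pcna, the ring that holds polymerases on DNA, was at 119 RPKM in control and 93.2 RPKM in mutant HSCs. Rfc3, a small loader subunit (chr5:151642817-151651208), was at 59.98 and 43.2 RPKM, 1.39-fold lower. Rfc1, the large subunit, was at 29.8 and 24.0 RPKM. These were the lowest of the 6 by log2 difference, between -0.47 and -0.30. Rfc2, the most abundant of all 40 transcripts, was at 555 and 485 RPKM, and Rfc4 at 162 and 159 RPKM. Rfc5 was the exception at 145 and 159 RPKM. None of the 6 was 1.5-fold apart. Opposite-strand exons of Lat2, Eif4a2 and Wsb2 cover 15.1%, 12.7% and 10.7% of the exonic bases of Rfc2, Rfc4 and Rfc5. Lat2 was at 3.54 and 10.7 RPKM, Eif4a2 at 109 and 88.3 RPKM and Wsb2 at 11.4 and 16.7 RPKM in controls and mutants. The share lower by any amount was 48.3% of all genes with at least 1 RPKM, and a count over 6 genes does not set the group apart from it.

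Primase and polymerase genes were lower in 6 of 8 and included Pold1, the farthest of the 40 genes in the lower direction. Among all genes with at least 1 RPKM 48.3% were lower, and a count over 8 genes does not set the group apart from that share. Pold1, the catalytic subunit of polymerase delta, which copies the lagging strand (chr7:44532744-44548815), was at 74.7 RPKM in control and 40.03 RPKM in mutant HSCs. It was 1.87-fold lower, with a log2 difference of -0.88, and 3.50% of genes with at least 10 RPKM had a lower one. Its partner Pold2, a regulatory subunit, was at 191 and 220 RPKM, so that the Pold2 level exceeded that of Pold1 2.55-fold in controls and 5.49-fold in mutants. Pole2, the second subunit of polymerase epsilon, which copies the leading strand (chr12:69201773-69228205), was at 25.2 and 42.2 RPKM, 1.67-fold higher. The catalytic subunit gene Pole was at 11.7 and 10.0 RPKM. In both polymerases the catalytic subunit was therefore lower and the second subunit higher in the mutant mean, and the Pole2 level exceeded that of Pole 2.16-fold in controls and 4.21-fold in mutants.

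Subunits of the polymerase alpha and primase complex, which lays down the RNA and DNA primers, lay closer together. Prim1, the catalytic primase subunit, was at 122 RPKM in control and 108 RPKM in mutant HSCs, and Prim2 at 38.1 and 36.5 RPKM. Pola1, the polymerase subunit on the X chromosome, was at 14.6 and 13.1 RPKM, and Pola2 at 22.7 and 22.5 RPKM. All 4 were lower by log2 differences between -0.17 and -0.02. The Prim1 level exceeded that of Prim2 3.19-fold in controls and 2.95-fold in mutants.

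Of the genes that finish the lagging strand, Fen1 was the lower in controls and Lig1 the lower in mutants. Fen1, the nuclease that trims displaced flaps (chr19:10199132-10204393), was at 51.0 RPKM in control and 93.1 RPKM in mutant HSCs, 1.82-fold higher, with a log2 difference of 0.85. Lig1, the ligase that seals the nick, was at 67.6 and 62.3 RPKM. The Fen1 level was 0.755 of that of Lig1 in controls and 1.495 times that of Lig1 in mutants. An annotated antisense gene, Gm10143, covers 78.8% of the exonic bases of Fen1, so the share of these reads that came from Fen1 was not tested. Rpa1, Rpa2 and Rpa3, which coat single-stranded DNA, were at 129, 155 and 100.1 RPKM in controls and at 113, 158 and 87.5 RPKM in mutants. The 3 levels were within 1.55-fold of each other in controls and 1.81-fold in mutants.

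The order of the 40 levels was kept closely between the groups. Spearman's rho between the control and mutant means was 0.95 over the 40 genes, and 0.93 over genes with at least 10 RPKM, as a description of columns that share gene lengths and processing. The log2 difference showed no trend with the mean level (rho 0.01 over the 40 genes). The pentamer GGACT, a preferred context of the methyltransferase, stood in the longest coding transcript of 36 of the 40 genes (90.0%), and in 90.2% of 5857 genes with at least 10 RPKM. The median density was 1.21 per kb, against 1.0499 per kb. Orc1 had the highest density of the 40, 2.65 per kb with 8 pentamers, while Pole2, also at least 1.5-fold higher, had 0. Across the 40 genes rho between this density and the log2 difference was 0.10. These letters say nothing of whether a transcript was methylated in these cells.

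Other genes of the replication cycle were compared from lists written with an earlier account of these data at hand, so their directions are not independent evidence. Of 17 genes of origin firing, 14 were higher in the mutant mean, with a median log2 difference of 0.28. On the log2 scale 3 were at least 2-fold higher. Among all genes with at least 1 RPKM in a group, 51.7% were higher and 4.6% at least 2-fold higher. Ccne2, a cyclin that drives CDK2 into S phase, was at 5.54 RPKM in control and 21.5 RPKM in mutant HSCs. Dbf4, the activator of the Cdc7 kinase that phosphorylates MCM, was at 6.23 and 22.6 RPKM. The table gives Ticrr, which bridges CDK activity to the loading of Cdc45, under an older symbol at 0.864 and 3.76 RPKM. Cdc7 itself was at 14.2 and 17.5 RPKM. The lowest of the list were Donson, a factor of helicase assembly, at 22.3 and 13.2 RPKM, and Lrwd1, which binds the origin complex, at 65.0 and 56.7 RPKM. The 3 genes past 2-fold on the log2 scale are regulatory or scaffold factors with at most 6.23 RPKM in controls. Ccne1, the other cyclin E gene, was 2.03-fold higher by the ratio of means, at 14.5 and 29.5 RPKM, and fell short of 2-fold on that scale.

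**Figure D3:**
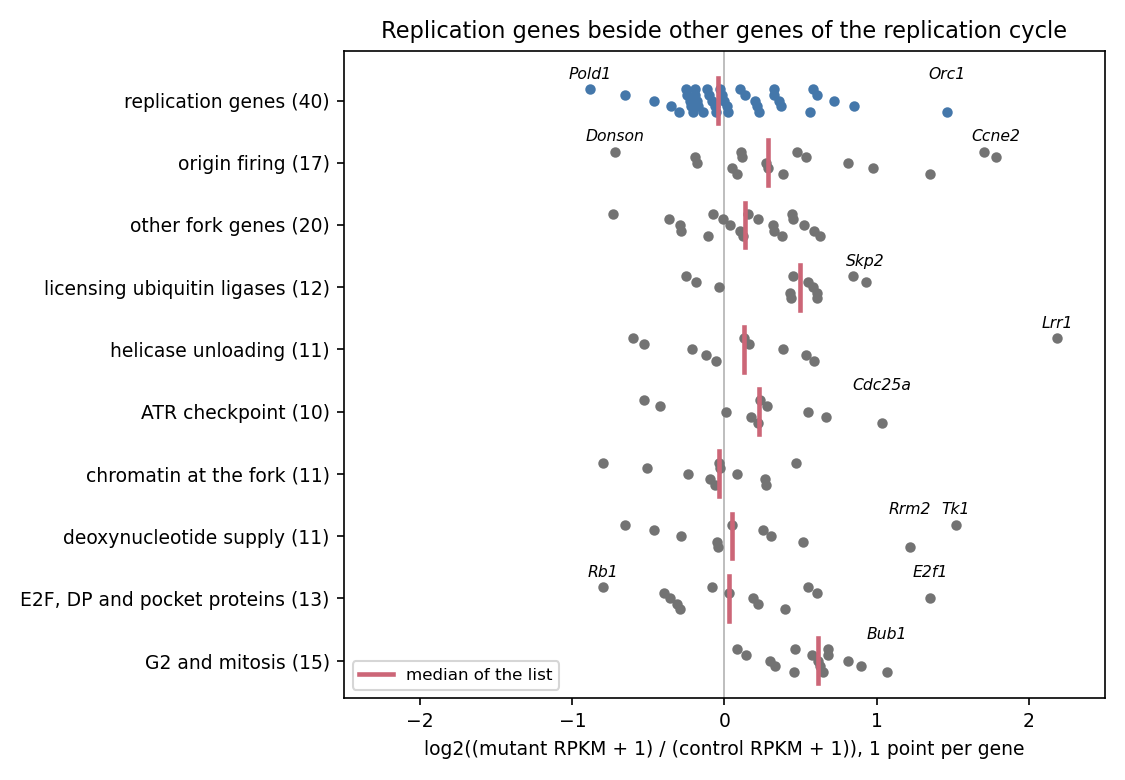
Log2 differences of single genes (points) and list medians (bars) for the 40 replication genes and for 9 lists of related genes, with the number of genes in brackets. The bar of the replication genes is at -0.04, that of origin firing at 0.28 and that of G2 and mitosis at 0.62. Those of chromatin at the fork, E2F and pocket proteins and deoxynucleotide supply are at -0.03, 0.03 and 0.05.

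Genes of ubiquitin ligases that act on licensing proteins had a median of 0.50, with 9 of 12 higher and 4 of them at least 1.5-fold on the log2 scale. The same shares over all genes with at least 1 RPKM were 51.7% and 14.8%. Skp2, an adaptor that targets Cdt1 and the CDK inhibitor p27, was at 6.39 RPKM in control and 13.1 RPKM in mutant HSCs. Fbxo5, which restrains the ligase that destroys geminin, was at 25.5 and 46.5 RPKM. Skp1a was at 652 and 547 RPKM and Ddb1 at 77.4 and 67.9 RPKM. Of the genes listed for helicase unloading, 6 of 11 were higher. Lrr1, the adaptor that directs a CUL2 ligase to Mcm7, was at 2.04 and 12.8 RPKM, a log2 difference of 2.19. Traip, another ligase gene of this list, was lower at 56.3 and 36.7 RPKM. Ufd1l, of the p97 cofactor that extracts the ring, was at 126 and 87.3 RPKM, and Faf1 at 25.9 and 39.4 RPKM.

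Further fork genes, such as accessory polymerase subunits and fork protection factors, had a median of 0.14, with 13 of 20 higher and 0 of 20 at least 2-fold apart. The accessory subunits of polymerase delta lay on opposite sides, with Pold3 at 27.4 RPKM in control and 42.9 RPKM in mutant HSCs and Pold4 at 73.5 and 43.9 RPKM. Dna2, a nuclease of long flaps, was at 5.64 and 8.99 RPKM, and Atad5, which unloads PCNA, at 3.61 and 2.58 RPKM. Of 10 genes of the ATR checkpoint, which guards stalled forks, 8 were higher. Cdc25a, the phosphatase that activates CDK2, was at 2.58 and 6.35 RPKM and Rad17 at 9.24 and 15.3 RPKM. Atrip was at 33.4 and 22.8 RPKM and Wee1 at 19.98 and 14.6 RPKM. Genes of chromatin at the fork had a median of -0.03, with Mms22l, which acts at stalled forks, at 16.01 and 8.77 RPKM and Uhrf1, which guides Dnmt1 to new DNA, at 18.1 and 12.4 RPKM. At the other end were Asf1b, a histone chaperone, at 53.7 and 74.7 RPKM and Tonsl at 3.00 and 3.84 RPKM.

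Deoxynucleotide supply was split, with 6 of 11 genes higher and a median log2 difference of 0.05. Tk1, thymidine kinase, was at 51.8 RPKM in control and 151 RPKM in mutant HSCs, and Rrm2, the cell cycle subunit of ribonucleotide reductase, at 54.1 and 127 RPKM. Its partner Rrm1 was at 91.2 and 88.3 RPKM. Samhd1, which degrades deoxynucleotides, was at 29.9 and 18.7 RPKM and Dtymk at 168 and 121 RPKM. Of the E2F and pocket protein genes, 7 of 13 were higher, with a median of 0.03. E2f1, an activator of replication genes, was at 4.89 and 14.1 RPKM and E2f7, a repressor, at 0.942 and 1.97 RPKM. Rb1, the repressor of E2F, was at 4.14 and 1.95 RPKM and its relative Rbl1 at 11.2 and 8.27 RPKM. Genes of G2 and mitosis had a median of 0.62, with 15 of 15 higher and 8 at least 1.5-fold higher on the log2 scale. Bub1, a spindle checkpoint kinase, was at 6.44 and 14.6 RPKM and Cenpa, the centromeric histone, at 68.2 and 128 RPKM, while Ccnb2 at 218 and 240 RPKM and Nusap1 at 27.9 and 29.6 RPKM were closest to the controls. Among all genes with at least 1 RPKM, 51.7% were higher by any amount and 14.8% at least 1.5-fold higher. The difference between these lists and the 40 replication genes was not tested.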

How the data were processed

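The deposited RPKM are means over the libraries of a group (3 control, 4 mutant), in 1 column each, per the file headers. Per the submitters' processing notes, mm10 was the build and Picard and edgeR were used. The aligner, annotation, averaging and the role of each tool remain not given in the sources used here. No test could be run and no spread given. Genes were matched by symbol, or by NCBI Gene identifier where the table has an older symbol (Ticrr, Kat7, Pclaf and Rad9a), and Ly6g was not analysed here. A pseudocount of 1 RPKM was used for log2 differences, and lists were counted over genes with at least 1 RPKM in a group. Counting was tested on simulated data. Coordinates are those of RefSeq GRCm38.p6, the assembly mm10 names, and lengths and overlaps are from GENCODE M21. Named companion genes are the 2 highest and 2 lowest of each list and those 2-fold apart; Cdc7, Ccne1, Cd34, Cd48 and Rrm1 were added after their values were seen. Members and lists were chosen with earlier results of these data known. Calculations used Python 3.11.15 and pandas 2.3.3.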

Additional observations from a re-analysis of the deposited data

How the results depend on the processing

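Values were recomputed with a pseudocount of 0.1 RPKM or none and with 2 rescalings of the columns. Over these settings the number of replication genes higher in the mutant mean ran from 16 to 18, those at least 1.5-fold higher from 4 to 5, and those at least 1.5-fold lower stayed at 2. On the unlogged scale, the fold between the groups changed by over 1.5 times for none of the 40 genes. The directions of Mcm3 and Cdt1 flipped in the rescalings, as given above. The median of mature lineage markers was 0.41 with the pseudocount of 0.1 and 0.46 with none, and without a minimum RPKM it was -0.00211 and that of erythroid markers -0.00625. The background moved with the genes counted. Over all 23038 genes, 8.17% and 6.58% were at least 1.5-fold higher and lower, and 2.32% and 2.19% at least 2-fold, while with at least 10 RPKM 2.47% were 2-fold lower. No paired analysis was possible because each group has 1 column of means, and for the same reason no library could be left out.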

Other observations

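The rows of the deposited table are not in a single order. NCBI Gene identifiers go up and down over the first 365 rows and rise steadily after that. The first rows hold wider differences, with a median absolute log2 difference of 1.19 against 0.09 in the rest. None of the 40 replication genes is among these 365 rows; the first of them, Cdc45, is in row 1012. The companion genes Dbf4, Ccne2, Rrm2 and Tk1 are among them. The sources used here do not say what set the order, and it was used in no comparison.

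The 40 genes are spread unevenly over the genome, which was noticed after their values were seen. Chromosome 5 holds 7 of them, Mcm7, Orc5, Pole, Rfc1, Rfc2, Rfc3 and Rfc5, and 6 of these were lower in the mutant mean, where 42.3% of the 414 genes of that chromosome with at least 10 RPKM were lower. Chromosome 8 holds 6, Mcm5, Orc6, Cdt1, Gins2, Gins3 and Gins4, with 3 higher and 3 lower. No test was made of either count.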
